A study of Mus musculus with 6 samples.

Results

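The potassium channel gene family was taken as every gene whose symbol begins with Kcn, followed by lower-case letters and a digit. This pattern matched 97 of the 24239 genes in the deposited expression table. Most encode pore or accessory subunits of potassium channels, and 4 are rows for antisense or other non-coding transcripts named after a channel gene (Kcnd3os, Kcnmb4os1, Kcnmb4os2 and Kcnq1ot1). RNA came from ventricular tissue of male C57BL/6 mice aged 8 to 10 weeks, with 3 mice in the pacing group and 3 in the sham group. In paced mice a bipolar catheter in the esophagus, close to the atria, paced it each day, with beats 80 ms apart for 45 min between spells of 3 min at 120 ms. Pacing ran for 5 days and, after 2 days without it, for 3 more days. Sham mice were controls without pacing. No genotype, transgene or drug is named for either group, and whether sham mice also received the catheter is not given in the sources used here. Expression is given as FPKM, fragments per kilobase of transcript scaled to the size of the library, so levels can be compared between genes.

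Potassium channels let potassium leave the cardiomyocyte and so end the action potential and hold the resting potential. Voltage-gated (Kv) channels carry the transient outward and delayed rectifier currents of repolarization. Inward rectifiers (Kir) set the resting potential and couple it to cell energy or to acetylcholine, tandem-pore channels carry background current, and calcium-activated channels link potassium efflux to calcium. The mouse ventricle repolarizes mainly through the fast Kv currents, unlike the human ventricle, where the rapid and slow delayed rectifiers carry more of the load.

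Marker genes of several cell types were read beside the labelled tissue. The 9 ventricular cardiomyocyte markers summed to 60300 to 62900 FPKM in paced and to 63600 to 83400 FPKM in sham mice, without overlap. All 9 had a lower mean in paced mice. Libraries differed in what else they held. The 11 atrial markers summed to 5900, 15000 and 10800 FPKM in pacing 1, 2 and 3, against 12900, 473 and 5430 FPKM in sham 1, 2 and 3, so sham 2 stood apart with very little atrial signal. The 10 lung epithelium markers summed to 2.51, 315 and 1730 FPKM in pacing 1, 2 and 3, against 0.492 to 4.99 FPKM in sham mice, where Sftpd, Sftpa1 and Scgb1a1 were among those at the floor in at least 1 mouse. The 11 adipocyte markers, all 11 with a higher mean in paced mice, summed to 1860 to 2730 FPKM in paced and 1660 to 2070 FPKM in sham mice, most of it Fabp4. The fat gene Adipoq had 72.8, 36.2 and 28.6 FPKM in pacing 1, 2 and 3, against 27.0, 2.14 and 1.94 FPKM in sham 1, 2 and 3. The 8 fibroblast markers, all 8 with a higher mean in paced mice, summed to 938 to 1190 FPKM in paced and 716 to 887 FPKM in sham mice, without overlap. In bulk tissue, fewer cells of a type and less RNA per cell cannot be told apart. Effective depth, read from the size of 1 fragment among low values, was 6216000 to 8824000 fragments per library, so that an FPKM of 1 over an effective length of 2 kb stands for 12.43 to 17.65 fragments, with a counting error of 23.8% to 28.4%.

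Summed over all members, the groups differed by less than the spread between mice. Its members summed to 537, 503 and 498 FPKM in pacing 1, 2 and 3, against 481, 517 and 549 FPKM in sham 1, 2 and 3. The means were 513 ± 21.4 FPKM in paced and 516 ± 34.0 FPKM in sham ventricles (SD, n = 3 each). Expression was concentrated in few genes, since 7 members had a mean of at least 30 FPKM over the 6 mice, 8 lay between 5 and 30 FPKM and 12 between 1 and 5 FPKM. These 27 members, with a mean FPKM of at least 1, entered the test, and each of the 27 also had a mean of at least 1 in both groups taken singly. The remaining 70 were below that level. Nearest to the threshold were Kcnk2 with a mean of 1.17 and Kcnt2 with 1.29 FPKM inside it, and Kcnab2 with 0.88 and Kcnmb1 with 0.775 FPKM outside.

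**Figure D1:**
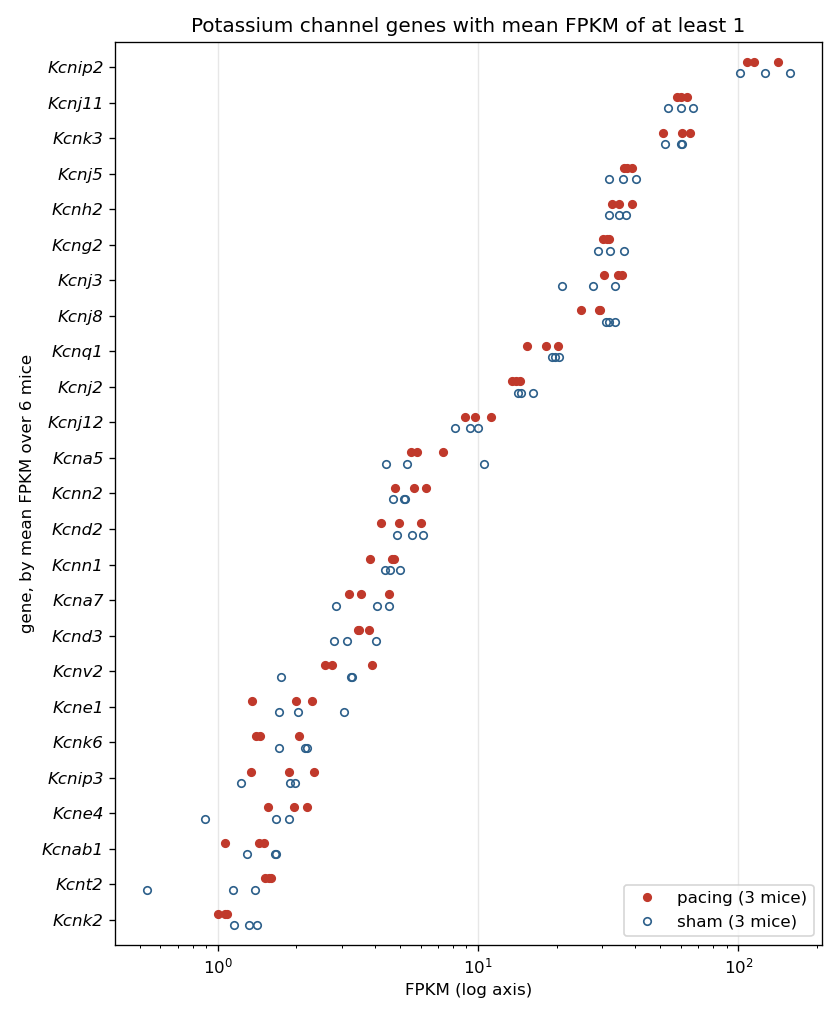
FPKM on a log axis of 25 of the 27 potassium channel genes with a mean of at least 1 FPKM, ordered by that mean. Filled points are the 3 paced mice and open points the 3 sham mice, and Kcnip2 stands alone at the top at 101 to 158 FPKM while Kcnk2 at the bottom lies near 1.

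The accessory subunits of Kv channels made up 26.2% of the summed family FPKM, almost all of it Kcnip2. ATP-sensitive inward rectifiers made up 17.6%, G protein-gated inward rectifiers 13.1% and tandem-pore channels 12.1%. The pore subunits Kcnd2, Kcnd3 and Kcnd1, for which Kcnip2 encodes a partner, together made up 1.7%. In each class the paced and sham mice overlapped. The largest spread within a group was that of the accessory subunits, which summed to 151, 119 and 126 FPKM in pacing 1, 2 and 3, against 111, 136 and 166 FPKM in sham 1, 2 and 3.

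**Figure D2:**
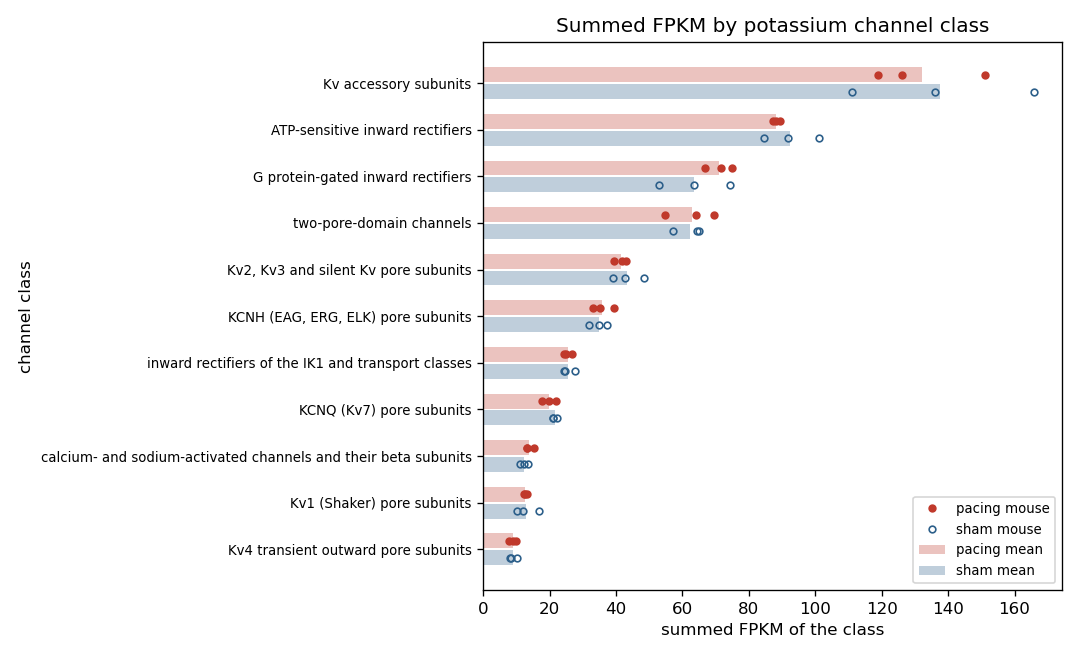
Summed FPKM of each potassium channel class by mouse, with all members of a class included. Bars are group means and points are single mice, and in each class the points of the 3 paced mice overlap those of the 3 sham mice.

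Genes were compared with limma on log2(FPKM + 1) over all 11994 genes that passed the same level, and every fold change sets pacing over sham on that scale, where differences of low genes appear smaller than they are. None of the 27 members passed at an adjusted p under 0.05, where 0% of all genes tested passed. Without sham 1 again 0 members passed, while 99 of all genes passed higher and 1 lower. The lowest adjusted p of a member was 0.562. At an unadjusted p under 0.05, 0 members were higher (5.17% of all genes tested) and 2 were lower (3.69%), among them Kcnj8, with 8.85% of all genes in either direction. The authors' deposited table likewise called 0 of the 97 members, where it called 1.38% of its genes. Of the 27 members 13 had a positive and 14 a negative fold change, with a median of -0.0154, beside 48.2% positive and a median of -0.0068 over all genes tested. In absolute size 0 of 27 members differed by more than 0.5, where 3.5% of all genes did, and the largest difference was 0.37, for Kcnt2. With a pseudocount of 0.1 the log2 fold change of Kcnt2 was 0.66, so the count of 0 holds on the reported scale only. In Kcnt2 each paced mouse lay above each sham mouse (6.24% of all genes tested), and in 3 members, among them Kcnj8 and Kcnk2, each paced mouse lay below each sham mouse (6.97%).

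**Figure D3:**
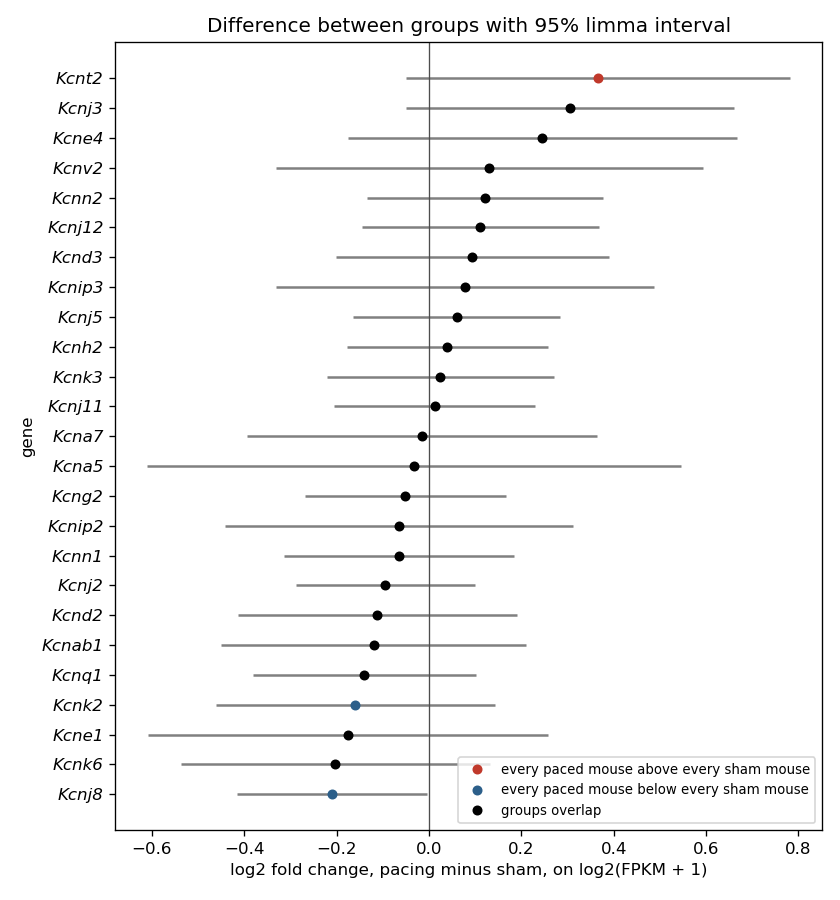
Log2 fold change, pacing minus sham on log2(FPKM + 1), of 25 of the 27 tested members with the 95% limma interval as a line. Red marks the gene whose 3 paced mice all lie above the 3 sham mice and blue the 2 genes whose paced mice all lie below them, and the interval of Kcnj8 ends just under 0.

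The transient outward current, which shapes early repolarization in mouse ventricle, is carried by the Kv4 pore proteins of Kcnd2 and Kcnd3, with the calcium-binding protein of Kcnip2 (KChIP2) as their main cardiac partner. Kcnip2 was the most abundant member, at 142, 108 and 115 FPKM in pacing 1, 2 and 3, against 101, 126 and 158 FPKM in sham 1, 2 and 3. Its range among sham mice enclosed the paced mice (log2 fold change -0.06, 95% interval -0.44 to 0.31). Kcnd2 had 4.94, 4.24 and 6.02 FPKM in pacing 1, 2 and 3, against 4.88, 6.13 and 5.57 FPKM in sham 1, 2 and 3. Kcnd3 had 3.79, 3.45 and 3.49 FPKM in pacing 1, 2 and 3, against 3.13, 4.05 and 2.78 FPKM in sham 1, 2 and 3. The groups overlapped in both genes, with log2 fold changes of -0.11 (95% interval -0.41 to 0.19) for Kcnd2 and 0.09 (95% interval -0.20 to 0.39) for Kcnd3. Per length, Kcnip2 transcripts exceeded the sum of Kcnd2 and Kcnd3 by a factor of 14.1 ± 2.09 in paced and 14.6 ± 3.68 in sham mice (SD, n = 3 each). Kcna4, which carries a slower transient outward current, lay under the threshold at 0.502, 0.469 and 0.60 FPKM in pacing 1, 2 and 3, against 0.767, 0.488 and 0.307 FPKM in sham 1, 2 and 3. Kcnip3, a further calcium-binding relative of KChIP2, had 1.85 ± 0.503 FPKM in paced and 1.69 ± 0.409 FPKM in sham mice. The Kcnd3 span also holds the antisense row Kcnd3os, at a mean of 0.623 FPKM over the 6 mice, and whether the counting used strand is not given in the sources used here.

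Silent subunits do not form channels alone and modify other Kv pores. Of these, Kcng2 reached 31.7, 31.3 and 30.3 FPKM in pacing 1, 2 and 3, against 28.8, 36.3 and 32.1 FPKM in sham 1, 2 and 3. Paced mice lay close together within the wider sham range (log2 fold change -0.05, 95% interval -0.27 to 0.17). Kcnv2, another silent subunit, had 3.90, 2.73 and 2.58 FPKM in pacing 1, 2 and 3, against 1.75, 3.28 and 3.25 FPKM in sham 1, 2 and 3, so that sham 1 was low and the other mice overlapped.

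Kcna5 encodes the Kv1 pore of the ultrarapid delayed rectifier, an atrial current in human hearts and also a ventricular one in mice. Its transcripts had 5.80, 7.32 and 5.54 FPKM in pacing 1, 2 and 3, against 4.42, 10.5 and 5.34 FPKM in sham 1, 2 and 3. Sham 2, the mouse with the least atrial signal, was the highest, and the sham range enclosed all paced mice (log2 fold change -0.03, 95% interval -0.61 to 0.55). Without sham 2 the log2 fold change was 0.29 (limma adjusted p = 0.761). The interval of Kcna5 was wide, so a difference of moderate size in either direction remained possible. Kcna7, a related muscle pore gene, had 3.75 ± 0.702 FPKM in paced and 3.83 ± 0.879 FPKM in sham mice. The other Kv1 pore genes lay under the threshold, with the neighbours Kcna1 and Kcna6, which lie 62.5 kb apart on chromosome 6, at means of 0.759 and 0.73 FPKM. Kcnab1, an accessory beta subunit of Kv1 channels, had 1.34 ± 0.241 FPKM in paced and 1.53 ± 0.213 FPKM in sham mice.

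Kcnh2, whose ERG protein carries the rapid delayed rectifier, was the most abundant Kv pore gene. It had 32.7, 39.1 and 34.7 FPKM in pacing 1, 2 and 3, against 36.9, 34.9 and 31.8 FPKM in sham 1, 2 and 3. The mice of both groups were interleaved (log2 fold change 0.04, 95% interval -0.18 to 0.26). Kcnq1 forms the slow delayed rectifier together with the small membrane protein of Kcne1. It had 20.3, 18.3 and 15.3 FPKM in pacing 1, 2 and 3, against 19.6, 20.4 and 19.3 FPKM in sham 1, 2 and 3. Sham mice lay close together, while pacing 3 was the lowest and pacing 1 lay within the sham range (log2 fold change -0.14, 95% interval -0.38 to 0.10). Kcne1 was low throughout, at 1.99, 2.29 and 1.35 FPKM in pacing 1, 2 and 3, against 3.04, 2.03 and 1.71 FPKM in sham 1, 2 and 3. Per length, Kcnq1 exceeded Kcne1 by a factor of 9.84 ± 1.71 in paced and 9.25 ± 2.50 in sham mice, and the groups overlapped. The neighbour Kcne2, 47.9 kb from Kcne1 on chromosome 16 and able to join ERG and KCNQ channels, had a mean of 0.0873 FPKM over the 6 mice. Kcne4, a subunit that inhibits KCNQ1 channels in expression systems, had 1.56, 2.19 and 1.95 FPKM in pacing 1, 2 and 3, against 0.892, 1.88 and 1.67 FPKM in sham 1, 2 and 3, with overlap. Kcnq1ot1, the imprinted non-coding RNA inside the Kcnq1 span, stood at a mean of 0.0551 FPKM over the 6 mice.

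Strong inward rectifiers of the Kir2 type carry the current that holds the resting potential. Kcnj2, their main ventricular pore gene, had 14.4, 13.5 and 14.0 FPKM in pacing 1, 2 and 3, against 14.5, 16.2 and 14.2 FPKM in sham 1, 2 and 3. The highest paced mouse lay just above the lowest sham mouse, and the interval was narrow (log2 fold change -0.09, 95% interval -0.29 to 0.10). Kcnj12, the other Kir2 gene of ventricle, had 11.2, 9.72 and 8.90 FPKM in pacing 1, 2 and 3, against 8.12, 10.0 and 9.29 FPKM in sham 1, 2 and 3, with pacing 1 above and the others among the sham mice (log2 fold change 0.11, 95% interval -0.15 to 0.37). Kcnj2 exceeded Kcnj12 in each mouse, by a factor of 1.41 ± 0.144 in paced and 1.65 ± 0.131 in sham mice. The next gene to Kcnj2 on chromosome 11, Kcnj16 at a distance of 38.2 kb, is best known from kidney and brain and had a mean of 0.0251 FPKM over the 6 mice.

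ATP-sensitive channels open when cell energy falls. Each is built from a pore of Kcnj11 or Kcnj8 and a sulfonylurea receptor of Abcc8 or Abcc9, and each pore gene lies beside a receptor gene. Kcnj11 lies 3.8 kb from Abcc8 on chromosome 7, and Kcnj8 lies 16.5 kb from Abcc9 on chromosome 6. Kcnj11, the pore of ventricular cardiomyocytes, had 63.4, 58.2 and 60.3 FPKM in pacing 1, 2 and 3, against 53.7, 60.2 and 67.0 FPKM in sham 1, 2 and 3. Its means differed by less than the spread between mice, at 60.6 ± 2.61 FPKM in paced and 60.3 ± 6.66 FPKM in sham ventricles (log2 fold change 0.01, 95% interval -0.21 to 0.23). Kcnj8, the pore of vascular smooth muscle and pericytes, had 24.7, 29.2 and 29.0 FPKM in pacing 1, 2 and 3, against 31.0, 31.7 and 33.5 FPKM in sham 1, 2 and 3. Each paced mouse lay below each sham mouse (log2 fold change -0.21, SE 0.09, limma unadjusted p = 0.0455, adjusted p = 0.562). Without pacing 1, its lowest mouse, the log2 fold change was -0.13 (limma adjusted p = 0.812).

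The receptor genes were among the partners outside the name pattern. Abcc9, whose SUR2 protein pairs with both pores, had 44.6, 38.7 and 36.4 FPKM in pacing 1, 2 and 3, against 42.6, 69.5 and 48.4 FPKM in sham 1, 2 and 3. Pacing 1 lay above sham 1, and the high value of sham 2 set much of the difference (log2 fold change -0.39, SE 0.17, limma unadjusted p = 0.0491, adjusted p = 0.563). The authors' deposited table called Abcc9 lower, with a q-value of 0.0491. Abcc8 had 9.53 ± 1.37 FPKM in paced and 8.55 ± 0.615 FPKM in sham mice. The 12 smooth muscle and pericyte markers, of which Abcc9 itself is 1, summed to 1010 to 1070 FPKM in paced and 939 to 1130 FPKM in sham mice. Most of each sum was Des, at 574 to 659 FPKM in paced and 544 to 766 FPKM in sham mice. Within that list the pericyte gene Rgs5 had 101, 126 and 124 FPKM in pacing 1, 2 and 3, against 126, 170 and 147 FPKM in sham 1, 2 and 3. The list did not move as 1 group, with 6 of its 12 genes higher and 6 lower in mean in paced mice. Higher were Acta2, Myh11, Tagln, Cnn1, Cspg4 and Notch3, and lower were Abcc9, Rgs5, Vtn, Pdgfrb, Smtn and Des. Tagln, a smooth muscle gene, had 83.7, 59.9 and 76.6 FPKM in pacing 1, 2 and 3, against 48.4, 25.6 and 34.3 FPKM in sham 1, 2 and 3. The 8 endothelial markers summed to 383 to 433 FPKM in paced and 440 to 489 FPKM in sham mice, without overlap. The part of these cell types in the Kcnj8 and Abcc9 values was not tested.

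**Figure D4:**
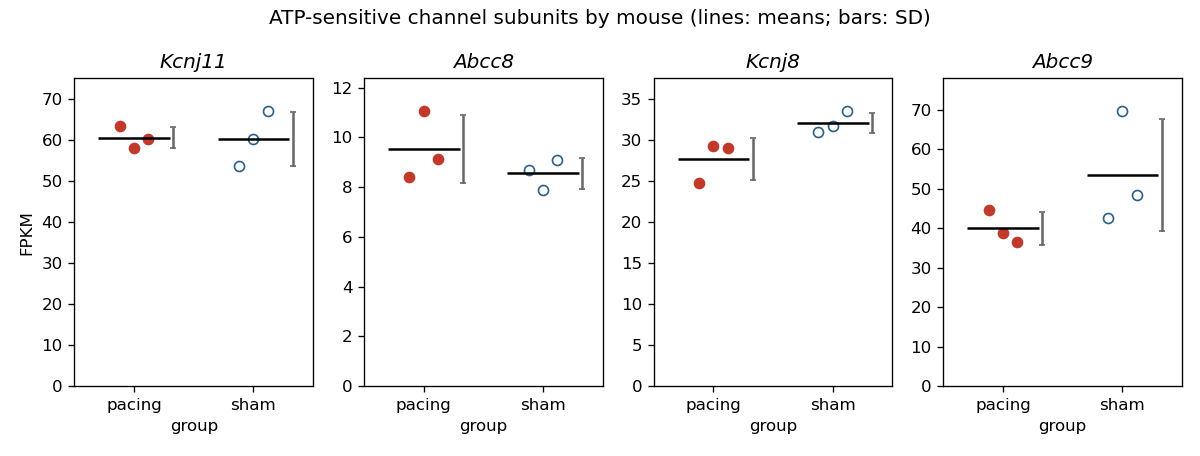
FPKM of the ATP-sensitive channel genes Kcnj11, Abcc8, Kcnj8 and Abcc9, with paced mice left of sham mice. Points are single mice, black lines group means and grey bars SD, and the groups are separate in Kcnj8 and overlap in Kcnj11, Abcc8 and Abcc9.

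Kcnj3 and Kcnj5 encode the channel that acetylcholine opens through G protein beta-gamma subunits. It is densest in atrium and in pacemaker tissue, where it slows the heart rate. Kcnj3 had 30.3, 34.5 and 35.8 FPKM in pacing 1, 2 and 3, against 33.5, 20.9 and 27.6 FPKM in sham 1, 2 and 3. Its mean was 33.5 ± 2.83 FPKM in paced and 27.3 ± 6.30 FPKM in sham mice (log2 fold change 0.31, SE 0.16, limma unadjusted p = 0.0834, adjusted p = 0.642). Sham 1 lay above pacing 1, and the low group mean of sham mice came mainly from sham 2. Without sham 2 the log2 fold change was 0.13 (limma adjusted p = 0.879), and without sham 1 it was 0.46 (limma adjusted p = 0.178). With the level of the atrial genes Myl7, Myl4 and Sln as a covariate it was 0.07 (limma adjusted p = 0.927). Kcnj5 had 36.4, 37.2 and 39.1 FPKM in pacing 1, 2 and 3, against 40.5, 31.9 and 36.0 FPKM in sham 1, 2 and 3. The sham range enclosed the paced mice, and sham 2 was again the lowest mouse (log2 fold change 0.06, 95% interval -0.16 to 0.28).

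The low end of both genes matched the low end of the atrial signal. The 3 mice lowest in the atrial marker sum, in rising order sham 2, sham 3 and pacing 1, were also the 3 lowest in Kcnj3 and in Kcnj5, in the same order. The upper 3 mice were ordered differently, and pacing 2, highest in the atrial sum, was highest in neither gene. In sham 2, with an atrial sum of 473 FPKM against 5430 FPKM or more elsewhere, Kcnj3 was at 20.9 and Kcnj5 at 31.9 FPKM. The atrial covariate fit rests on 6 mice, with sham 2 far below the others in atrial signal. It gives no measure of the part of atrial tissue in the Kcnj3 and Kcnj5 values, which was not tested. Per length, Kcnj3 stood to Kcnj5 as 0.834, 0.926 and 0.915 in pacing 1, 2 and 3, against 0.828, 0.656 and 0.766 in sham 1, 2 and 3. The ratio lay higher in each paced mouse, though pacing 1 and sham 1 were nearly alike. This and the other ratios between genes were chosen after their values were seen and are given with no test. Kcnj9 was listed at the floor in all mice and Kcnj6 had a mean of 0.0505 FPKM, both being neuronal genes of this class.

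**Figure D5:**
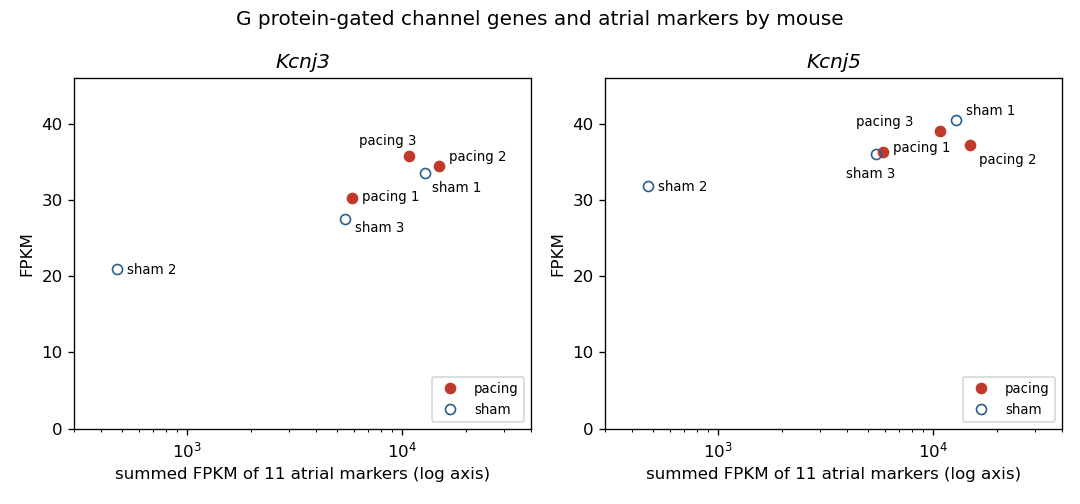
FPKM of Kcnj3 (left) and Kcnj5 (right) against the summed FPKM of 11 atrial marker genes on a log axis, with 1 point per mouse. Sham 2 lies far to the left at 473 FPKM and is the lowest mouse in both genes, while sham 1 lies among the paced mice.

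The bases upstream of these genes are shown because Kcnj3 and Kcnj5 varied together over the mice and Kcnj8 had an unadjusted p under 0.05. Each is the 250 bases before the RefSeq gene start (build GRCm38.p6), written 5′ to 3′ on the strand of the gene. Capitals mark matches on either strand to the TATA motif TATAAA, the GC box GGGCGG, the GATA motif AGATAA or the T-box site AGGTGT, none of which overlapped another. Kcnj3 lies at chr2:55435720-55435969 on the plus strand, Kcnj5 at chr9:32344345-32344594 on the minus strand and Kcnj8 at chr6:142571615-142571864 on the minus strand.
Kcnj3: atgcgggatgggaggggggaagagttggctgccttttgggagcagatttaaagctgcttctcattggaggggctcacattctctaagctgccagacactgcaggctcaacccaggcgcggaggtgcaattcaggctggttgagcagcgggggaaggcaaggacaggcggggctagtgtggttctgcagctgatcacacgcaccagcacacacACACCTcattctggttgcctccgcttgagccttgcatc
Kcnj5: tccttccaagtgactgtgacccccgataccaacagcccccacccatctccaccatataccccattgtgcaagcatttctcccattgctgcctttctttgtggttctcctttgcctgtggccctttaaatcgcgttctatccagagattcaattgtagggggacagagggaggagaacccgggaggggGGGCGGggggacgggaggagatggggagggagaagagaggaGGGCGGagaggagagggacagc
Kcnj8: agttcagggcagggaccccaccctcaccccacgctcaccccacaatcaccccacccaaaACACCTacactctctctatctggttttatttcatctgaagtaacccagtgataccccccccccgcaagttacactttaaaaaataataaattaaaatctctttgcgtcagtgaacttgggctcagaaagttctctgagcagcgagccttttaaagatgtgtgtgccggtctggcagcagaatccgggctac

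Kcnj3 and Kcnj8 each held 1 match to the reverse complement of AGGTGT, a motif found on either strand in 11.8% of the 32851 RefSeq promoters of the same length. Kcnj5 held 2 matches to GGGCGG, found in 32.7% of them, and no match to the other motifs. None of the 3 held TATAAA or AGATAA, which are in 12.4% and 10.0% of promoters. The RefSeq start of Kcnj3 equals the deposited one, while the deposited starts of Kcnj5 and Kcnj8 lie 107 and 258 bases further downstream. Such matches describe letters only. Of the 97 members 71 had at least 1 promoter in the table, with a median GC content of 58.8% beside 52.4% over all promoters.

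Tandem-pore channels carry background current. Kcnk3, the acid-sensitive TASK-1 channel, was the most abundant of them. It had 64.8, 60.5 and 51.1 FPKM in pacing 1, 2 and 3, against 52.2, 59.9 and 60.9 FPKM in sham 1, 2 and 3, with overlap (log2 fold change 0.02, 95% interval -0.22 to 0.27). Kcnj11 and Kcnk3, next in level after Kcnip2, did not differ beyond their spread. Kcnk2, the stretch- and lipid-sensitive TREK-1 channel, had 1.09, 0.998 and 1.06 FPKM in pacing 1, 2 and 3, against 1.41, 1.15 and 1.31 FPKM in sham 1, 2 and 3. Each paced mouse lay below each sham mouse (log2 fold change -0.16, SE 0.13, limma unadjusted p = 0.26, adjusted p = 0.778), at a level where the counting error alone is large. Kcnk6 had 1.63 ± 0.361 FPKM in paced and 2.02 ± 0.271 FPKM in sham mice, with overlap.

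Among calcium- and sodium-activated channels, the small-conductance genes were the most abundant. Kcnn2 had 6.32, 4.81 and 5.67 FPKM in pacing 1, 2 and 3, against 5.25, 4.72 and 5.17 FPKM in sham 1, 2 and 3. Kcnn1 had 4.42 ± 0.498 FPKM in paced and 4.66 ± 0.322 FPKM in sham mice. The groups overlapped in both, with log2 fold changes of 0.12 (95% interval -0.14 to 0.38) and -0.07 (95% interval -0.31 to 0.18). Kcnt2, a sodium-activated channel, had 1.60, 1.57 and 1.51 FPKM in pacing 1, 2 and 3, against 1.39, 0.535 and 1.14 FPKM in sham 1, 2 and 3. Paced mice were closely alike and above each sham mouse, and sham 2 was again the lowest (log2 fold change 0.37, SE 0.18, limma unadjusted p = 0.0774, adjusted p = 0.626). Without sham 2 the log2 fold change of Kcnt2 was 0.18 (limma adjusted p = 0.874), and with the atrial covariate it was 0.15 (limma adjusted p = 0.918). Sham 2 and sham 3 were the lowest mice both in Kcnt2 and in the atrial marker sum. Above them the order differed, since pacing 1 was highest in Kcnt2 but the lowest paced mouse in that sum. Sham 1 exceeded pacing 1 and pacing 3 in the atrial sum but lay below each paced mouse in Kcnt2. The covariate fit gives no measure of the part of atrial tissue in the Kcnt2 values, which was not tested.

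Sham 1 was the lowest mouse in 9 of 27 members, among them Kcnip2, Kcnj11, Kcng2, Kcnj12, Kcna5 and Kcnv2, where it was the lowest in 17.1% of all genes tested. Without sham 1 the median log2 fold change of the family was -0.0899, beside -0.0148 over all genes tested. Sham 2 was the highest in 6 members, including Kcnq1, Kcnd2, Kcnj2 and Kcna5 (23.1% of all genes), and the lowest in 5, including Kcnj3, Kcnj5 and Kcnt2 (20.7%). Pacing 3 was the lowest in 6 (16.5%), among them Kcnq1 and Kcnk3. The SD of paced mice was smaller than that of sham mice in 14 of 27 members, beside 58.9% of all genes tested.

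Below the threshold lay 70 members, of which 16 were at the floor value of 0.01 in all 6 mice, 30 in some mice only and 24 in none. The mean was under 0.1 FPKM in 41 of them. When all genes above the floor in at least 1 mouse were tested, 81 members entered, 0 passed the adjusted threshold, and 7 had an unadjusted p under 0.05, beside 8.22% of all 17476 genes. Apart from Kcnj8 these were low genes, named here after their values were seen. Kcnk5, an epithelial tandem-pore channel, had 0.58, 0.565 and 0.632 FPKM in pacing 1, 2 and 3, against 0.441, 0.238 and 0.349 FPKM in sham 1, 2 and 3. Kcnj15, an inward rectifier of epithelia, had 0.714, 0.87 and 1.25 FPKM in pacing 1, 2 and 3, against 0.762, 0.339 and 0.427 FPKM in sham 1, 2 and 3. Its highest value was in pacing 3, which also had the highest lung marker sum, and the part of lung transcripts was not tested. Kcnn4, the intermediate-conductance channel of blood cells, had 0.685, 0.723 and 0.44 FPKM in pacing 1, 2 and 3, against 0.574, 0.01 and 0.0892 FPKM in sham 1, 2 and 3. The 8 erythrocyte and platelet markers summed to 200 to 270 FPKM in paced and 109 to 124 FPKM in sham mice, and the 8 macrophage and monocyte markers to 378 to 506 FPKM in paced and 255 to 399 FPKM in sham mice. The part of these cells in the Kcnn4 values was not tested. Kcnma1, the large-conductance channel of smooth muscle, had 0.139 to 0.19 FPKM in paced mice and 0.01 to 0.131 FPKM in sham mice. On the lower side Kcnj14 had 0.20, 0.261 and 0.272 FPKM in pacing 1, 2 and 3, against 0.622, 0.666 and 0.322 FPKM in sham 1, 2 and 3. Kcnk4 was listed at 0.01 in each paced mouse, against 0.0808 to 0.102 FPKM in sham mice. Kcnk4 thus entered this fit through the sham mice alone, and its place among the 7 is no support for a difference. At these levels a value rests on few fragments, and spans such as that shared by Kcnip1 and Kcnmb1 leave the assignment of fragments uncertain.

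Of 50 genes listed as partners outside the name pattern, 43 were tested and 0 passed at an adjusted p under 0.05. They were mainly receptors, scaffolds, regulators and G protein subunits of these channels, and the list also held Ptprf and Casq2, described below. The list was chosen with earlier results of these data known, so its counts beside the shares of all genes describe the list only. At an unadjusted p under 0.05, 3 were higher and 5 lower, beside the same 5.17% and 3.69% of all genes tested. The median fold change was 0.015. Among genes of G protein signalling, Gnao1 had 10.7, 17.0 and 16.2 FPKM in pacing 1, 2 and 3, against 12.7, 7.67 and 8.04 FPKM in sham 1, 2 and 3 (limma adjusted p = 0.51 for a log2 fold change of 0.58 with SE 0.21). Gng2 had 5.57, 12.4 and 10.0 FPKM in pacing 1, 2 and 3, against 9.59, 2.55 and 5.10 FPKM in sham 1, 2 and 3. Its groups overlapped (limma adjusted p = 0.661 for a log2 fold change of 0.69 with SE 0.39). The authors' deposited table called Gnao1 and Gng2 higher, with q-values of 0.00595 and 0.00328, and also called Ptprf higher, with a q-value of 0.00328. Ptprf, a receptor phosphatase gene, had 1.75, 2.33 and 2.82 FPKM in pacing 1, 2 and 3, against 1.68, 1.22 and 1.15 FPKM in sham 1, 2 and 3 (limma adjusted p = 0.484 for a log2 fold change of 0.48 with SE 0.16). In Gnao1 and Gng2 the mice ranked as in the atrial genes Myl4 and Sln, from sham 2 at the low end to pacing 2 at the high end, and the part of atrial tissue was not tested. Fhl1, a LIM protein that binds Kv1 channels, had 78.5, 86.2 and 78.5 FPKM in pacing 1, 2 and 3, against 70.5, 63.3 and 61.8 FPKM in sham 1, 2 and 3, without overlap. Its relative Fhl2 lay the other way, at 1319 ± 151 FPKM in paced and 1690 ± 169 FPKM in sham mice (limma adjusted p = 0.484 for a log2 fold change of -0.36 with SE 0.12). The ankyrin gene Ank2, which anchors ion transporters, had 19.3 ± 0.831 FPKM in paced and 23.6 ± 2.26 FPKM in sham mice, and the calcium store protein gene Casq2 had 548 ± 48.7 FPKM in paced and 641 ± 31.1 FPKM in sham mice. Irx4, a ventricular transcription factor of the Iroquois family, had 11.9 ± 0.416 FPKM in paced and 15.5 ± 3.63 FPKM in sham mice, and Ank2, Casq2 and Irx4 lay lower in each paced mouse. Of the 43 tested partner genes 3 lay above (6.24% of all genes tested) and 6 below (6.97%) without overlap. Dpp6 and Dpp10, neuronal partners of Kv4 channels, were at the floor in 5 of 6 mice each.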

How the data were processed

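The 6 libraries (3 paced and 3 sham mice) were stranded polyA RNA, read as 151-base pairs, per the labels' protocols. Cufflinks and Cuffdiff, TopHat2 (version 2.1.0) with Bowtie2 (2.2.6), FastQC (1.0.0) and mm10 are listed in the submitters' processing notes. The authors deposited FPKM per mouse, with 0.01 as the floor, and a table of group FPKM and q-values. Starts in the files count from 0, and 1 was added here. The mice are separate animals per the series' design, and grouping followed the labels.

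Genes averaging at least 1 FPKM entered a limma fit of log2(FPKM + 1) (limma 3.58.1, R 4.3.3; eBayes with trend, two-sided, Benjamini-Hochberg over 11994 genes, called at an adjusted p under 0.05). One gene with a failed value, Cacna2d1, was left out. The fit was tested on simulated data. Depth came from the steps of low values in one-exon genes, which were whole fragments within 0.05. Per-mouse values were to be given for members with an unadjusted p under 0.05 or no overlap, the 6 most abundant, and a panel of cardiac currents. Members, classes, partners and marker lists were chosen with earlier results of these data known. Alternatives were pseudocounts of 0.1 and 0.5, no filter or a mean of 5, 3 scalings, other eBayes settings, a replicate block, an atrial covariate, and leaving out mice. Of the 27 tested members 2 enter all counts and sums and are not reported singly here. Promoters are from RefSeq (GRCm38.p6).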

Additional observations from a re-analysis of the deposited data

How the results depend on the processing

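No member passed the adjusted threshold under any alternative run (0 of 27 members, also at an adjusted p under 0.1, and 0 in the authors' deposited table), nor did a partner gene under those run for partners (the replicate block and leaving out 1 mouse), and the lowest limma adjusted p of a member was 0.178, for Kcnj3 without sham 1. The cause of the shifts below was not tested. Of 474 member values under alternatives, 428 kept the sign of the reported value. Part of this agreement was fixed in advance. Without the filter, with a mean of at least 5, with other eBayes settings or with the replicate block, fold changes equal the reported ones. The count at an unadjusted p under 0.05, reported as 2, was 7 of 81 with no filter. It was 1 with a mean of at least 5, 0 after rescaling to the same sum and 1 without a trend. With the replicate block it was 1, with the atrial covariate 0, and when 1 mouse was left out 0 to 2. Of all genes, 8.85% had such a p as reported, 8.22% with no filter, 8.91% with a mean of at least 5 and 9.31% after rescaling. The share was 8.65% without a trend, 7.56% with the block, 6.53% with the covariate, and 6.04% to 14.4% when 1 mouse was left out. The count without overlap, reported as 4, was 11 with no filter, 2 with a mean of at least 5, 9 without pacing 2 and 3, and 4 to 9 when 1 mouse was left out. Of all genes, 13.2% did not overlap as reported, 12.3% with no filter, 13.2% with a mean of at least 5, 48.3% without pacing 2 and 3, and 22.1% to 31.8% when 1 mouse was left out. The family median, reported as -0.0154, was 0.0481 after rescaling and -0.0899 to 0.0138 when 1 mouse was left out. The median of all genes, reported as -0.0068, was 0.0617 after rescaling and -0.0148 to -0.0015 when 1 mouse was left out. Over all genes, 620 were higher and 442 lower at an unadjusted p under 0.05, against 969 and 148 after rescaling and 514 and 609 after centring. At an adjusted p under 0.05, 0 of all genes passed as reported, against 100 without sham 1, 8 without pacing 1, 7 with the replicate block, 1 without pacing 3 and 1 with robust eBayes.

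Signs of the members reported singly reversed as follows, in log2 fold change. After centring, Kcnk3 was -0.00081 and Kcnj11 -0.013. After rescaling, Kcnip2 was 0.013, Kcng2 0.024, Kcna5 0.035 and Kcna7 0.048. With the atrial covariate, Kcnj5 was -0.053, Kcnip3 -0.11, Kcnip2 0.016, Kcng2 0.056, Kcna7 0.11 and Kcna5 0.33. Without pacing 2 and 3, Kcnh2 was -0.072, Kcnip3 -0.19, Kcnk6 0.018, Kcnq1 0.035, Kcnip2 0.17, Kcna7 0.21 and Kcnn1 7.6e-05. With 1 mouse left out, Kcna5 ran from -0.25 to 0.29, Kcna7 from -0.17 to 0.094, Kcng2 from -0.13 to 0.031, Kcnh2 from -0.030 to 0.096, Kcnip2 from -0.22 to 0.095, Kcnip3 from -0.054 to 0.21, Kcnj11 from -0.067 to 0.090, Kcnj5 from -0.025 to 0.14, Kcnk3 from -0.049 to 0.12, Kcnn1 from -0.11 to 0.013 and Kcnv2 from -0.080 to 0.24. Others kept their sign and moved in size, as Kcnj12 (0.028 to 0.18), Kcnd3 (0.0033 to 0.21), Kcnd2 (-0.22 to -0.011) and Kcnq1 (-0.23 to -0.037) did.

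Deviations of same-numbered mice correlated at -0.125, -0.022 and -0.02, against -0.1 to 0.113 for differently numbered mice. No pairing by replicate number was seen, but with 3 mice a group this cannot exclude a batch shared by number. With the number as a block 0 members and 0 partner genes passed. With 3 mice a group, the printed intervals give the differences that remained possible, and at 1 FPKM counting error adds to the spread between mice. An interval without 0 did not mean a pass after adjustment, as for Kcnj8 (limma adjusted p = 0.562).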
